A study of Mus musculus with 10 samples.

Results

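The 10 genes described here mark the endothelial cells that form the blood-brain barrier, the vessel wall that a compound given by a pump under the skin has to cross to reach the striatum. They were chosen by name from the 21230 genes of the deposited table, and each of the 10 was found there and passed the filter for testing, a mean of at least 10 normalized counts. Slco1a4, Slco1c1, Abcb1a, Slc2a1 and Mfsd2a encode transporters, Cldn5, Cdh5 and Pecam1 encode proteins of the contacts between endothelial cells, and Flt1 and Ly6c1 serve as markers of endothelial identity. RNA was taken from striatum punches of 10 heterozygous BACHD mice of the FVB/N strain, which carry a full-length human mutant huntingtin gene under its own regulatory sequence in every library of both groups. Treatment of the mice began at about 3 months of age and lasted 8 weeks. In the DMSO group, 5 mice received the vehicle, DMSO mixed with polyethylene glycol, and in the SPI-24 group 5 mice received SPI-24, an inhibitor of the contact between Spt5 and RNA polymerase II, at 80 mM in the pump. The pump was replaced after 28 days. No wild-type library was analysed here, the labels give no sex for a library, and each library is labelled as a separate biological replicate.

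Endothelial cells of brain capillaries differ from those of other organs. Tight junctions seal the gaps between them, vesicle traffic through them is low, and what enters the tissue passes by transporters or is pushed back by efflux pumps. Glucose enters through GLUT1 (Slc2a1), thyroid hormone and organic anions through the OATP carriers (Slco1c1 and Slco1a4), and many drugs are returned to the blood by P-glycoprotein, for which Abcb1a is a mouse gene. Mfsd2a carries lysophosphatidylcholine with docosahexaenoic acid and keeps transcytosis low. The state of these cells depends on Wnt signals from neighbouring cells and on contact with pericytes and astrocyte endfeet.

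Promoter sequence is shown for 4 members, chosen because Slco1a4 had the smallest p of the 10, Slco1c1 encodes a related carrier on the same chromosome, and Slc2a1 and Mfsd2a are the other transporters whose window overlaps the annotated gene. The window of the transporter Abcb1a, which starts at 8566841 on chromosome 5, lies upstream of the gene as annotated in GENCODE M21 (start 8660077) and is not shown, although it held matches to TCF/LEF, SOX and FOX letters. The windows, from RefSeq on GRCm38.p6, run from 250 bases before to 50 bases after the start site on the strand of the gene. They lie at chr6:141856171-141856470 (minus strand) for Slco1a4, chr6:141524104-141524403 (plus strand) for Slco1c1, chr4:119108495-119108794 (plus strand) for Slc2a1 and chr4:122961139-122961438 (minus strand) for Mfsd2a. Capitals mark matches, on either strand, to short motifs of ETS factors (CGGAAG), the hypoxia response core (ACGTG), TCF/LEF factors (CTTTGA), SOX factors (ACAAAG) and FOX factors (TGTTTAC).
Slco1a4: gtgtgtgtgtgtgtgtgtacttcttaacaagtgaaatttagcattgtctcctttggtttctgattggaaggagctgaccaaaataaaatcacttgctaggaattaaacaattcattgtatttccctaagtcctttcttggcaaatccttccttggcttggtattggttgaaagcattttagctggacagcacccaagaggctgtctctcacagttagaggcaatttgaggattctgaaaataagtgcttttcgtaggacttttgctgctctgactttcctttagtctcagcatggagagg
Slco1c1: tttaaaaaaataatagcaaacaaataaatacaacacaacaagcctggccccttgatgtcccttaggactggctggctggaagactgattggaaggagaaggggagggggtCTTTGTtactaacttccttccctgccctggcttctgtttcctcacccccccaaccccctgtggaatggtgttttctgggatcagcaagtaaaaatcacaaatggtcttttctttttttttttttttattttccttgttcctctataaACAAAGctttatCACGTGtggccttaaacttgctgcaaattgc
Slc2a1: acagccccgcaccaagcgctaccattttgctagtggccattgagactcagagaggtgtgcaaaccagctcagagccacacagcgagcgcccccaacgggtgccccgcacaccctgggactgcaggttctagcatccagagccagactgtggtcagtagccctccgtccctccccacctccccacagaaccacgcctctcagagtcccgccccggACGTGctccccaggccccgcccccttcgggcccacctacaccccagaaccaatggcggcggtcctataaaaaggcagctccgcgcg
Mfsd2a: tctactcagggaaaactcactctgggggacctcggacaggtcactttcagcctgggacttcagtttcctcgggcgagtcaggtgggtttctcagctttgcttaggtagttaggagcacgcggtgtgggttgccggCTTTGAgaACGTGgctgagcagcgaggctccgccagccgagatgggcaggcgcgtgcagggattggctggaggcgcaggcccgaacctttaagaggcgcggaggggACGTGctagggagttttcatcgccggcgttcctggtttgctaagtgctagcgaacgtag
The Slco1a4 window held none of the 5 motifs. In the Slco1c1 window the letters ACGTG were matched on both strands at overlapping positions, and SOX letters were matched at 2 further positions. The Slc2a1 window held 1 match to the hypoxia core, and the Mfsd2a window held 2 such matches and 1 of TCF/LEF. Windows were found for 8 of the 10 members, and those of Cdh5 and Pecam1 were not analysed here. The hypoxia core occurred in 3 of these 8 genes and in 19.6% of all 32851 windows, TCF/LEF in 2 and 16%, SOX in 3 and 18.7%, FOX in 1 and 3.65%, and the ETS letters in 0 and 16.9%. The Abcb1a window counts as 1 gene in the TCF/LEF and SOX figures and gave the only FOX match. These matches describe letters only, since no binding was measured.

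The libraries held 5.48 to 46.9 M reads assigned to genes, recovered from the deposited normalized counts, and 4 DMSO and 3 SPI-24 libraries were above 11 M. The shallow ones were DMSO replicate 3 (5.48 M), SPI-24 replicate 2 (7.38 M) and SPI-24 replicate 5 (10.1 M). The tissue pieces differed in make-up within both groups. Summed over 12 markers of medium spiny neurons, the main neurons of the striatum, levels ranged from 4850 to 97034 normalized counts in DMSO and from 3863 to 105450 in SPI-24, and Drd1, the dopamine receptor of the direct pathway, had no reads in DMSO replicate 3. Choroid plexus markers ranged from 642 to 190997 in DMSO and from 1719 to 30085 in SPI-24. Endothelial transcripts were present in every library, with a summed level of the 10 members of 5222 to 6020 normalized counts in DMSO and 4944 to 7659 in SPI-24. Abundant genes weigh most in this sum, such as Slco1c1, at 2538 in DMSO replicate 1 and also made by choroid plexus. The mean log2 level of the members spanned 1.01 units in DMSO and 1.23 in SPI-24. That of further endothelial identity genes spanned 1.98 and 1.83. In bulk tissue, fewer endothelial cells and less RNA per cell cannot be told apart.

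None of the 10 genes passed an adjusted p of 0.05 in the comparison of SPI-24 with DMSO, and neither did any of the 15871 genes tested (limma with trend on log2(normalized count + 1), Benjamini-Hochberg adjustment, a background of 0% called). Of the 10 members, 8 had a positive log2 fold change and 2 a negative one, where 50.2% of all genes tested were positive. The median log2 fold change was 0.32 over the members and 0.00 over all genes. Slco1a4 was the 1 member with an unadjusted p under 0.05, beside 2.23% of all genes in either direction, 0.958% higher and 1.27% lower. A log2 fold change of at least 1 was seen for 2 members, Slco1a4 and Cdh5, and for 10.4% of all genes. In no member did the 2 groups separate completely, as they did in 0.195% of all genes with SPI-24 higher and in 0.321% with SPI-24 lower. In 3 members, Slco1a4, Slc2a1 and Pecam1, all SPI-24 values but 1 were higher than the whole DMSO group, and at least 4 values were so in 1.66% of all genes.

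**Figure D1:**
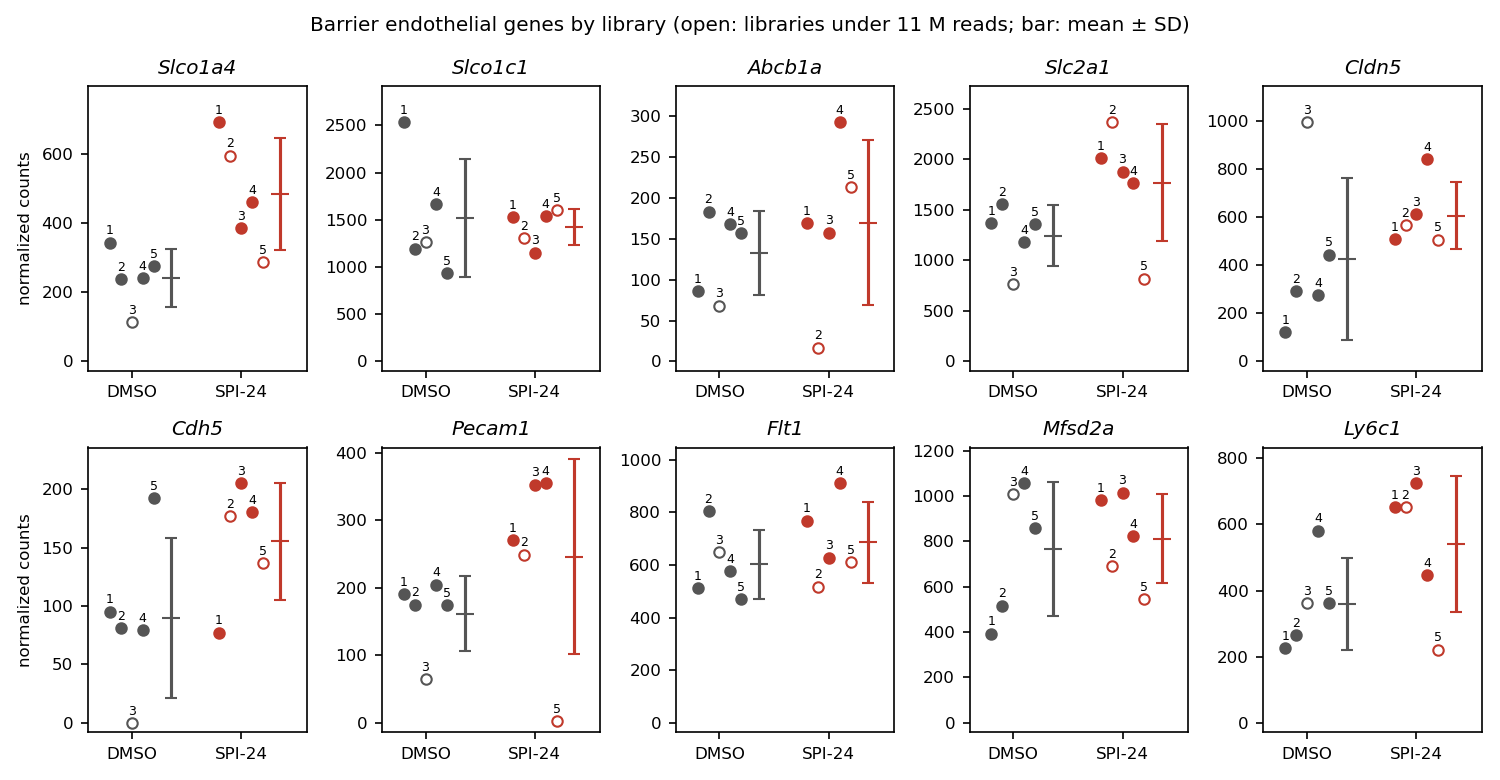
Normalized counts (y axis, one scale per panel) of the 10 genes in the 5 DMSO and 5 SPI-24 libraries (x axis). Each point is 1 mouse with its replicate number, open points are libraries under 11 M reads, and bars give the mean ± SD of 5. The Slco1a4 values in SPI-24 reach 692.5 while none in DMSO passes 343.7, and the lone values near 0 in Cdh5, Pecam1 and Abcb1a are open points.

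Slco1a4 encodes OATP1A4, an organic anion carrier of brain endothelium, and lies on chromosome 6 of GRCm38 from 141805440 to 141856199. DMSO replicates 1 to 5 had 343.7, 237.8, 112.8, 240.3 and 274.7 normalized counts, and SPI-24 replicates 1 to 5 had 692.5, 594.9, 385.3, 460.8 and 287.7. The groups overlapped only through SPI-24 replicate 5, which lay between DMSO replicates 5 and 1. The means were 242 ± 83.8 (SD, n = 5 mice) and 484 ± 162. On the log2 scale the difference was 1.02 ± 0.39 (standard error; 95% interval 0.20 to 1.84), but the adjusted p from limma was 0.999. An exact two-sided permutation test over the 10 libraries gave p = 0.0159, where the smallest value possible is 0.00794. For the other 9 members the same exact permutation test gave p from 0.143 (Cldn5 and Cdh5) to 1 (Pecam1), and these p are not adjusted for the 10 genes. Without DMSO replicate 3, the lowest value of all with 33 reads, the log2 fold change was 0.77. Of the 50-base windows of its longest annotated transcript, 2.73% also occur in transcripts of the related genes Slco1a5, Slco1a1 and Slco1a6, and such reads were discarded by the authors as multi-mapped.

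Slco1c1, 235 kb away on the same chromosome (141524368 to 141570177), encodes OATP1C1, which carries thyroxine into the brain. It was counted at 2538, 1193, 1265, 1663 and 936.0 (normalized) in DMSO and at 1529, 1306, 1151, 1537 and 1604 in SPI-24. All SPI-24 values fell inside the range of DMSO, where replicate 1 stood highest. The log2 fold change was -0.01, with an interval (95%) that reached from -0.53 to 0.50, or from 0.695 to 1.41 as a ratio. Slco1c1 is also made by choroid plexus, whose markers were highest in DMSO replicate 1, at 3.41 log2 units above their mean over the 10 libraries. Without that library the log2 fold change was 0.19, and the part of choroid plexus in its level was not tested beyond a covariate, which gave 0.18.

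Slc2a1, on chromosome 4 from 119108711 to 119137983, encodes the glucose transporter GLUT1. The normalized counts of the DMSO mice were 1365, 1556, 765.6, 1176 and 1357, those of the SPI-24 mice 2011, 2368, 1875, 1762 and 817.5. Replicates 1 to 4 of SPI-24 exceeded all DMSO libraries, and SPI-24 replicate 5 was among the lowest values. The means were 1244 ± 299 and 1767 ± 578, a difference of 0.46 ± 0.28 (standard error) on the log2 scale, which did not pass (limma, adjusted p = 0.999). Leaving out SPI-24 replicate 5 gave 0.72, and leaving out DMSO replicate 3 gave 0.30.

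Abcb1a, the P-glycoprotein gene expressed at the barrier, lies on chromosome 5 from 8660077 to 8748575. The DMSO mice gave 85.6, 183.3, 68.4, 168.2 and 157.3 normalized counts, the SPI-24 mice 169.4, 16.6, 157.8, 293.2 and 213.2. The value of SPI-24 replicate 2 stood for 6 reads, where the median of the other SPI-24 libraries would have given 69.1 reads at that depth. Its log2 fold change of 0.00 lay between wide bounds of -1.68 and 1.69 (95%) and became 0.71 without SPI-24 replicate 2. Of its 50-base windows 18.6% also occur in other annotated transcripts, first of all those of Abcb1b, so the 2 paralogs are counted only over the sequence that tells them apart. Abcb1b, the other P-glycoprotein gene of mice, stood at 60.2 ± 47.4 in DMSO, where replicate 3 had no reads of it, and at 71.7 ± 30.3 in SPI-24.

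Mfsd2a, the lysophospholipid transporter on chromosome 4 (122946850 to 122961188), gave 392.4, 516.3, 1008, 1055 and 856.4 normalized counts with vehicle and 981.5, 691.7, 1015, 823.6 and 546.4 with SPI-24. The SPI-24 values lay within the span of the DMSO values. Its log2 fold change of 0.15 (interval -0.49 to 0.79) became -0.066 without DMSO replicate 1.

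Cldn5 encodes claudin-5, the main tight junction claudin of brain endothelium, and lies on chromosome 16 from 18776847 to 18778262. The DMSO mice had 122.5, 291.6, 994.6, 275.9 and 443.7 normalized counts of it, the SPI-24 mice 508.1, 564.4, 611.6, 839.3 and 505.0. Every SPI-24 library lay above DMSO replicates 1, 2, 4 and 5 and below DMSO replicate 3. The means were 426 ± 338 and 606 ± 138, a difference of 0.82 ± 0.44 (standard error) in log2 units (limma, adjusted p = 0.999). The value moved to 1.21 without DMSO replicate 3 and to 0.45 without DMSO replicate 1, so its size depended on single DMSO libraries. It also depended on the test, with 0.54 from edgeR (TMM), 0.52 from DESeq2 and 0.996 from limma-voom.

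Cdh5 encodes VE-cadherin, the cadherin of endothelial adherens junctions, on chromosome 8 from 104101625 to 104144511. Normalized counts with vehicle were 95.1, 80.8, 0, 79.3 and 192.6, and with SPI-24 77.2, 177.1, 204.9, 180.4 and 136.6. DMSO replicate 3 had no Cdh5 reads, which allows up to 3 reads or 10.3 normalized counts (counting error only), while the median of the other DMSO libraries would have given 25.7 reads at its depth. With that library the log2 difference was 1.84 (95% bounds -0.81 and 4.49), and without it 0.50. It was 1.16 with a pseudocount of 10, and count models gave 0.77 (edgeR with TMM) and 0.78 (DESeq2). The groups overlapped, since SPI-24 replicate 1 lay below 4 of 5 DMSO libraries.

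Pecam1, the adhesion molecule CD31 on chromosome 11 (106654217 to 106750628), had 190.3, 174.7, 64.9, 204.3 and 173.7 normalized counts in DMSO. With SPI-24 the values were 270.1, 249.0, 352.7, 354.3 and 2.07. Replicates 1 to 4 of SPI-24 exceeded all DMSO libraries, while SPI-24 replicate 5 held 1 read where the median of the other SPI-24 libraries would have given 150 reads. The direction therefore depended on the scale and on that library. The means were 162 ± 55.5 and 246 ± 144, higher in SPI-24, but the log2 fold change was -0.32 (95% interval -2.74 to 2.10) with SPI-24 replicate 5 and 1.005 without it.

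Flt1 encodes VEGFR1, a receptor that binds VEGF with high affinity and limits its action, and lies on chromosome 5 from 147561604 to 147726011. It varied least among the 10, with normalized counts of 512.5, 804.0, 649.4, 576.8 and 468.7 under vehicle and 767.7, 517.4, 627.4, 909.6 and 610.5 in SPI-24. The highest value was 1.94 times the lowest, and the groups overlapped over most of their range. Its log2 fold change was 0.19, between bounds of -0.33 and 0.70.

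Ly6c1 encodes a surface protein anchored by a lipid and abundant on brain endothelium, on chromosome 15 from 75044018 to 75048830. Vehicle mice showed 225.9, 266.0, 362.3, 581.6 and 361.9 normalized counts, SPI-24 mice 651.9, 653.0, 724.2, 447.3 and 221.4. Replicates 1 to 3 of SPI-24 lay above all DMSO libraries, and SPI-24 replicate 5 lay below them all. The difference on the log2 scale was 0.55 ± 0.38 (standard error; limma, adjusted p = 0.999), and 0.84 without SPI-24 replicate 5. The level of Ly6c1 is uncertain, because 36.7% of its 50-base windows also occur in transcripts of Ly6c2 and Ly6a.

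**Figure D2:**
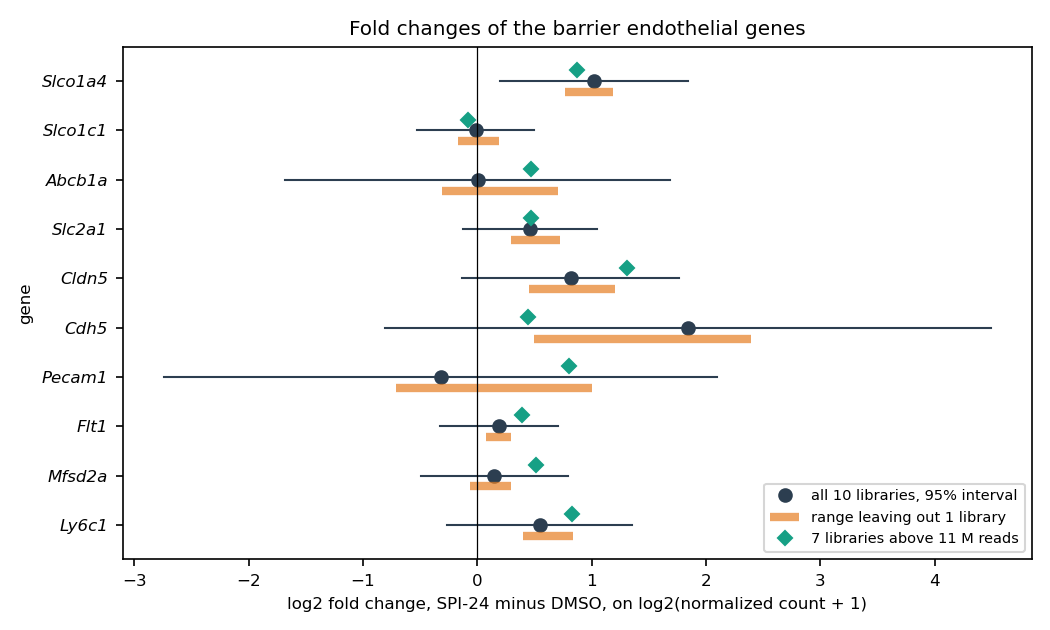
Log2 fold change of SPI-24 minus DMSO (x axis) for each of the 10 genes (y axis). Dots with lines give the value and 95% interval over all 10 libraries, thick bars the range when 1 library is left out, and diamonds the 7 libraries above 11 M reads. Only the line of Slco1a4, from 0.20 to 1.84, stays clear of 0, and the diamond of Pecam1 lies at 0.80 against a dot at -0.32.

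Per kilobase of annotated exon, the members fell into 2 ranges of level. Slc2a1 (429 ± 147 normalized counts per kb, SD over 10 libraries), Cldn5 (364 ± 184), Mfsd2a (350 ± 106), Slco1c1 (284 ± 84.7) and Ly6c1 (268 ± 114) made up the upper range, in which neighbours differed by less than their SD. Slco1a4 (56.6 ± 27.5), Flt1 (47.7 ± 10.5), Pecam1 (32.7 ± 18.0), Cdh5 (29.1 ± 15.8) and Abcb1a (27.6 ± 14.3) made up the lower one, again with neighbours closer than their SD. With the longest transcript as the length, Ly6c1 stood highest at 533 and Slco1a4 at 95 per kb, still below Cldn5 at 364.

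Values far from the rest of their group were more frequent in the shallow libraries. Of 30 values in the 3 libraries under 11 M reads, 9 differed by more than 1 log2 unit from the median of the other 4 libraries of their group, against 5 of 70 values in the deeper libraries. Over all 11207 genes with a mean of at least 100 these shares were 22.6% and 10.1%. The farthest values were the single Pecam1 read of SPI-24 replicate 5, at -6.66, the absent Cdh5 reads of DMSO replicate 3, at -6.47, and the 6 Abcb1a reads of SPI-24 replicate 2, at -3.44. Library by library, the mean log2 level of the 10 members deviated from its overall mean by -0.93 for DMSO replicate 3, by -0.59 for SPI-24 replicate 5 and by 0.47, 0.52 and 0.65 in SPI-24 replicates 1, 3 and 4. Over all 10 libraries the members did not vary as one. The library with the least Pecam1 was not low in Slco1c1, and the library without Cdh5 reads had the most Cldn5. Both were libraries under 11 M reads. In the 7 libraries above 11 M reads the Pearson correlation of Cldn5 with Cdh5 was 0.59, against -0.31 over all 10. That of Slco1c1 with Pecam1 was -0.02, against -0.11. Among pairs of members without Slco1c1, all but Cdh5 with Flt1 (-0.13) had a positive correlation in these 7 libraries.

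**Figure D3:**
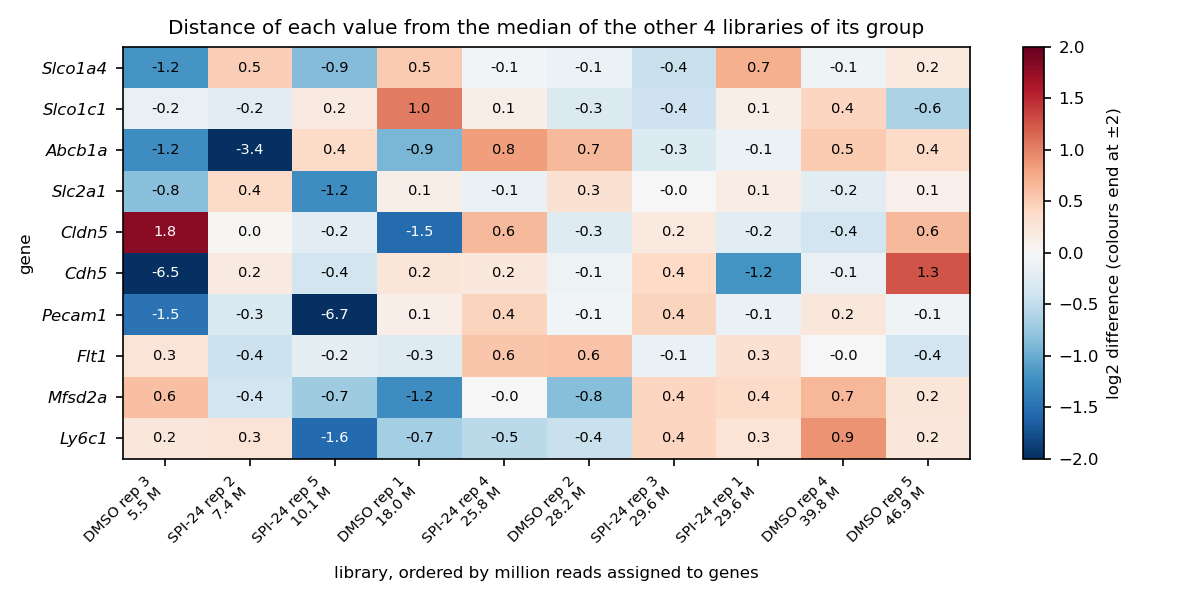
Difference in log2(normalized count + 1) between each library and the median of the other 4 libraries of its group, for the 10 genes (rows). Columns are libraries in order of the reads (M) assigned to genes, and colours end at ±2. The cells at -6.66, -6.47 and -3.44 stand in the 3 leftmost columns.

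In the 7 libraries above 11 M reads, 9 of the 10 members had a positive log2 fold change, where 49% of all genes did, and 4 had an unadjusted p under 0.05, where 2.19% of all genes were that far higher. These were Cldn5 (1.31, standard error 0.44), Slco1a4 (0.87, 0.28), Pecam1 (0.80, 0.26) and Slc2a1 (0.47, 0.14). Without SPI-24 replicate 5, 4 members had such a p (1.69% of all genes) and 8 were positive (51.8%), and without DMSO replicate 3 these counts were 2 (1.45%) and 7 (42.6%). Leaving out SPI-24 replicate 1 instead gave 0 members with such a p, and leaving out any of the remaining libraries gave 1. None passed after adjustment over all genes in the 7 libraries (limma, smallest adjusted p of the 10 = 0.814). In the same 7 libraries the tissue make-up also differed between the groups, and its part in these values was not tested: all 12 medium spiny neuron genes and all 12 choroid plexus genes were lower in SPI-24, with medians of -2.75 and -2.57, and all 10 genes of thalamic, hypothalamic and hindbrain neurons were higher, with a median of 2.10. Covariates were fitted only over all 10 libraries, where the mean medium spiny neuron level differed by -0.11 log2 units between the groups. Those fits therefore cannot decide the part of make-up in the 7 libraries. With the medium spiny neuron level, Slco1a4 was at 1.02, Cldn5 at 0.79, Slc2a1 at 0.46 and Pecam1 at -0.36. With the choroid plexus level these genes were at 1.11, 0.49, 0.43 and -0.64, against 1.02, 0.82, 0.46 and -0.32 without a covariate.

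Other genes of the barrier were described as lists, whose members gave no call either. Of 22 further endothelial identity genes tested, 16 were higher and 6 lower in SPI-24 (median log2 fold change 0.40), where 50.2% of all genes were higher. Of the higher ones, 3 had an unadjusted p under 0.05 (limma), as did 0.958% of all genes. Adgrl4, an adhesion receptor of endothelium, was found at 63.0, 37.4, 0, 216.8 and 158.8 normalized counts with vehicle and at 306.7, 309.9, 353.9, 235.0 and 246.3 in SPI-24. Each SPI-24 library exceeded every DMSO library, as in 0.195% of all genes tested. Ly6a, a surface protein that shares sequence with Ly6c1, averaged 354 ± 114 with vehicle and 608 ± 152 with SPI-24, a log2 difference of 0.81 ± 0.30 (standard error), and the transcription factor Sox17 was at 129.6, 4.60, 0, 0 and 83.2 with vehicle and at 147.1, 113.4, 69.2, 71.7 and 142.8 with SPI-24, so that DMSO replicates 1 and 5 lay within the SPI-24 range. In the 7 deeper libraries 17 of the 22 were higher (49% of all genes), and without DMSO replicate 3 this held for 13 (42.6% of all genes).

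Junction genes other than Cldn5, Cdh5 and Pecam1 were higher in 4 of 13 cases, with a median of -0.13, and in the 7 deeper libraries in 7 of 13, with a median of 0.06. Jam2, a junctional adhesion molecule, averaged 1326 ± 294 with vehicle and 1726 ± 226 with SPI-24, a log2 difference of 0.40 ± 0.19 (standard error), and the endothelial adhesion molecule Esam had 193 ± 79.8 and 140 ± 108. Of 16 other transporters and receptors of the barrier, 8 were higher and 8 lower (median -0.01). Slc3a2, the heavy chain of the LAT1 amino acid carrier, had 1349 ± 236 and 1708 ± 274, the efflux pump Abcg2 had 181 ± 113 and 303 ± 176, and the efflux pump Abcc4 had 233 ± 173 and 152 ± 94.7. The set of leak, caveolae and leukocyte adhesion genes had 4 of 8 higher (median -0.14), with caveolin-1 (Cav1) at 218 ± 49.7 and 327 ± 75.3, Vcam1, a leukocyte adhesion molecule, at 837 ± 231 and 672 ± 143, and Lrg1 at 38.4 ± 50.6 and 4.05 ± 5.71.

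Of 19 Wnt genes of the barrier, 13 were higher (median 0.09), but 9 without DMSO replicate 3 and 10 in the 7 deeper libraries. Fzd6, a Wnt receptor, had 59.0 ± 46.4 and 161 ± 72.2 normalized counts, Nkd1, a feedback inhibitor of the pathway, had 400 ± 192 and 625 ± 226, and the co-receptor Lrp6 had 706 ± 292 and 492 ± 70.5. All 10 tested VEGF ligands, receptors and partners were higher (median 0.55), but only 6 of 10 without DMSO replicate 3 and 6 of 10 in the 7 deeper libraries. The share of all genes that were higher was itself 50.2% over the 10 libraries, 42.6% without DMSO replicate 3 and 49% in the 7. Nrp1, a co-receptor of VEGF, had 151 ± 183 and 333 ± 159, Vegfa had 733 ± 164 and 948 ± 375, and the lymphatic receptor Flt4 had 22.1 ± 21.3 and 39.0 ± 33.4. By vessel segment, 6 of 9 arterial genes (median 0.21), 5 of 6 capillary genes (0.20) and 5 of 6 venous genes (0.45) were higher. In the 7 deeper libraries these counts were 5 of 9 (median 0.15), 3 of 6 (0.14) and 4 of 6 (0.28). Of the segment genes, the arterial connexin Gja5 had 4.34 ± 9.70 and 33.9 ± 46.8 over the 10 libraries. The capillary enzyme Car4 had 570 ± 247 and 801 ± 245, and the venous transcription factor Nr2f2 had 408 ± 177 and 504 ± 81.0.

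Cells next to the endothelium gave a mixed picture. Of 15 pericyte and smooth muscle genes 9 were higher (median 0.40), and 6 without DMSO replicate 3, where 42.6% of all genes were higher. The pericyte gene Cox4i2 was at 37.8 ± 25.9 and 100 ± 34.0 normalized counts and Rgs5 at 1369 ± 642 and 1738 ± 594. Of 10 basal lamina genes 5 were higher (median -0.09), with the laminin chain Lama5 at 32.6 ± 34.6 and 109 ± 47.7 and the collagen chain Col4a1 at 124 ± 66.6 and 103 ± 96.3. Of 12 astrocyte endfoot genes 6 were higher (median -0.02), with Dag1, the dystroglycan of the endfoot, at 1043 ± 125 and 853 ± 167. Of 9 fibroblast genes 4 were higher (median -0.18). In the 7 libraries above 11 M reads, where 49% of all genes were higher, some of these signs changed. Basal lamina genes were then higher in 7 of 10 cases (median 0.42) and fibroblast genes in 6 of 9 (0.19). Pericyte and smooth muscle genes were higher in 9 of 15 (0.26) and endfoot genes in 4 of 12 (-0.10). Choroid plexus genes were lower for 11 of 12 (median -1.08), and their mean level spanned 5.89 log2 units inside the DMSO group, while the group means differed by -1.20. With the mural level as a covariate Slco1a4 was at 1.01 and Cldn5 at 0.83, while the choroid plexus level took Cldn5 to 0.49.

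**Figure D4:**
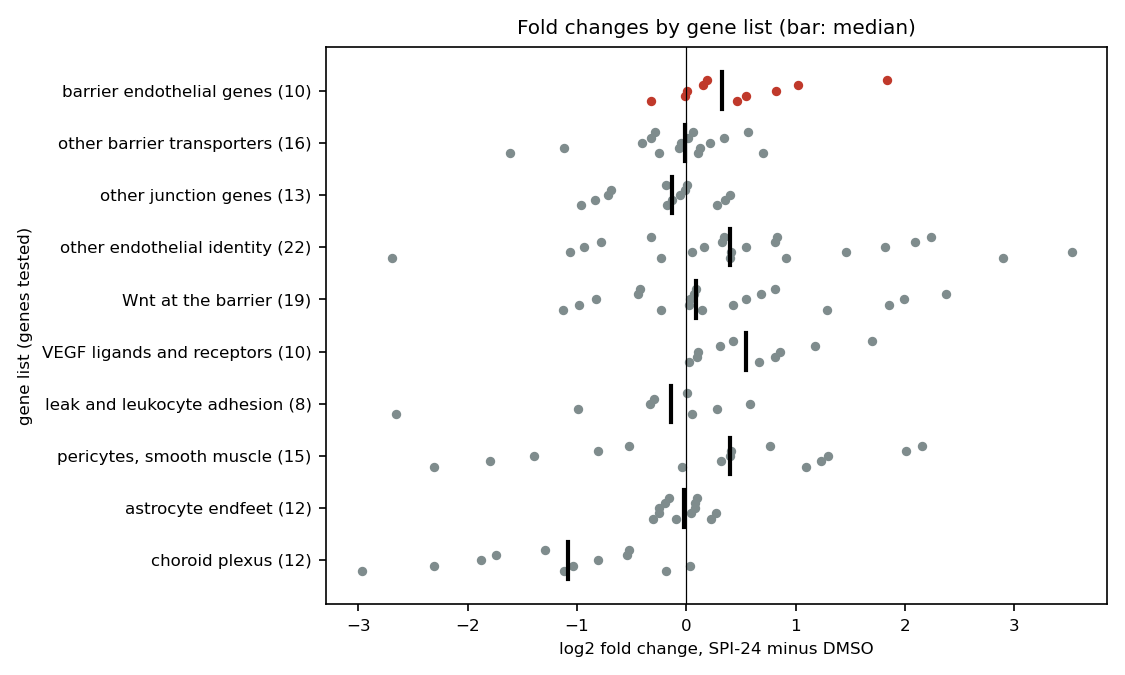
Log2 fold change of SPI-24 minus DMSO (x axis) of each gene tested, in rows by gene list with the number tested, where bars mark the median of each list. The 10 barrier endothelial genes (top row) have a median of 0.32, other junction genes one of -0.13 and choroid plexus genes one of -1.08.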

How the data were processed

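Conditions and replicate numbers came from the labels. Libraries were stranded and single reads of 50 bp were obtained. The authors used cutadapt for trimming, STAR for alignment (GRCm38, Ensembl genes) and htseq-count for counting. Reads that mapped more than once or fell under 30 bp were dropped. Versions were not given in the sources used here. Each deposited signal is the count scaled by the DESeq2 size factor of its library. The authors' log2 fold changes, p-values and mean signal per gene are in the same table and were not used. Reads were recovered as whole multiples of the value of 1 read, with 99.98% of 154521 non-zero values within 0.1 read of a whole number.

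SPI-24 was compared with DMSO in R 4.3.3 using limma 3.58.1 (trend option, values as log2 after adding 1) for genes with a mean of at least 10, without covariates. Over all genes tested, standard errors had a median of 0.47 in log2 units. On this scale fold changes of low genes depend on the pseudocount, and a library at 0 can enlarge them. The test was checked on simulated counts.

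The members and lists were chosen with earlier results of these data known. All members were described, with up to 3 genes of smallest p per other list (Adgrl4, Sox17 and Ly6a for identity), of which the text gives part, and paralogs of members. Drd1 and Hbb-bs were named after their values were seen. Of 22 lists besides the members, the report gives vascular ones and the closing section the others. Lef1, Ly6a, Ly6c2 and Slc2a3 stand in 2 lists each. Alternatives were edgeR 4.0.16 (with TMM or the deposited size factors), DESeq2 1.42.0 and limma-voom on the recovered reads, other filters and pseudocounts, covariates (Xist, mural, choroid plexus and medium spiny neuron levels), the replicate block and each library left out. The counts per list without shallow libraries were chosen after seeing the data. Gene coordinates and exon lengths are those of GENCODE M21, in which 99.8% of the identifiers were found. The 50-base windows were compared with annotated transcripts only, not with the genome.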

Additional observations from a re-analysis of the deposited data

Results flagged for a closer look

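Within groups of 5 libraries, 6 of 40 combinations of gene, group and scale had an outlying lowest value. Its gap to the next value, divided by the whole range, passed the 95% limit of 0.71. The combinations count each gene and group on both scales and share libraries of unlike depth. Their number therefore cannot be set against the rate of 1 in 20 behind that limit. All 6 outlying values lay in libraries under 11 M reads. On the log2 scale these were Cdh5 in DMSO replicate 3 (0 reads, ratio 0.833), Pecam1 in DMSO replicate 3 (19 reads, 0.858), Pecam1 in SPI-24 replicate 5 (1 read, 0.926), Abcb1a in SPI-24 replicate 2 (6 reads, 0.781) and Slc2a1 in SPI-24 replicate 5 (395 reads, 0.722). On the scale of normalized counts Pecam1 in DMSO replicate 3 also passed, with 64.9 and a ratio of 0.780.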

How the results depend on the processing

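No member was called under any of the 26 alternatives. The smallest adjusted p of a member was 0.814. Slco1a4, Slc2a1, Cldn5, Flt1, Ly6c1 and, where tested, Cdh5 kept a positive log2 fold change under each alternative. Slco1a4 ranged from 0.77 to 1.19 and had an unadjusted p under 0.05 in 25 of the 26. The exception was the fit without SPI-24 replicate 1. Such a p was seen in 5 alternatives for Cldn5, in 2 each for Slc2a1 and Pecam1, in 1 for Ly6c1 and for no other member. Leaving out 1 library moved Slco1c1 between -0.17 and 0.19, Abcb1a between -0.31 and 0.71, Pecam1 between -0.71 and 1.005 and Mfsd2a between -0.066 and 0.29. Pecam1 turned positive with edgeR (0.61 with TMM, 0.60 with the deposited factors), DESeq2 (0.60 with and without its filters), limma-voom (0.27), a pseudocount of 10 (0.017) and the libraries above 11 M reads (0.80). Abcb1a turned negative with a pseudocount of 0.5 (-0.0017) and with covariates (mural -0.012, choroid plexus -0.095, medium spiny neurons -0.0086). Slco1c1 turned positive with limma-voom (0.016) and the choroid plexus covariate (0.18). The causes were not tested. Over all genes limma called 0, with 354 at an unadjusted p under 0.05, as did edgeR with 367 and 377. DESeq2 called 3, all lower and named after the call (A530016L24Rik, 1700024G13Rik and Erich2), and 17 without outlier removal and independent filtering. Same-numbered libraries did not deviate together (correlations from -0.13 to -0.01). This cannot decide whether the numbers pair the mice, which the labels do not state. With the replicate block limma called 0 genes and Slco1a4 stayed at 1.02. A filter of 10 in every library left no value for Cdh5 and Pecam1. Cdh5, Pecam1 and Abcb1a are limited by single libraries under 11 M reads, in which they had 0, 1 and 6 reads. The median of the other libraries of the group would have given 25.7, 150 and 69.1 reads there. The cause of these low counts was not tested.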

Other observations

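The mean of the 10 standardised members was set against each of 11207 genes with a mean of at least 100 normalized counts, over the 10 libraries on the log2 scale. These correlations describe which genes varied alike, carry no test, and share the depth of the same libraries. The closest gene was Gak, the cyclin G-associated kinase that uncoats clathrin vesicles in most cell types, with Pearson r = 0.96. It had 1065, 1280, 1176, 1346 and 1257 normalized counts in DMSO and 1580, 1353, 1544, 1715 and 1157 in SPI-24, with SPI-24 replicate 5 again among the low values. Napg (0.89), Pcx (0.88), Srpk2 (0.88), Asap1 (0.86), Rab40c (0.86), Ttc9c (0.83), Polrmt (0.82), Fbxo44 (0.82) and 1110008P14Rik (0.82) followed, and none of these 10 stands in a list of endothelial genes. The first gene of any other list was the astrocyte connexin Gjb6 at rank 23 (0.78), and the first of the endothelial lists were Abcg2 at rank 79 (0.73) and Ptprb, an endothelial phosphatase, at rank 195 (0.66). These ranks depend on the shallow libraries. In the 7 libraries above 11 M reads Gak was at 0.97, Gjb6 at 0.73, Abcg2 at 0.62 and Ptprb at 0.88. Of the other endothelial identity genes ranked, most rose, such as Tek from 0.35 to 0.81 and Kdr from -0.19 to 0.64. Podxl fell from 0.52 to 0.31, and Itm2a, Egfl7 and Cd34 also fell. Among the members themselves the 45 pairwise correlations had a median of 0.11 and ran from -0.58 (Slco1c1 with Cldn5) to 0.83 (Slco1a4 with Slc2a1), where the median over all pairs of the 11207 genes was -0.01. In the 7 libraries above 11 M reads these 2 pairs had -0.61 and 0.81, and Cldn5 with Cdh5 had 0.59, against -0.31 over all 10. Most pairs were higher in these 7 libraries than over all 10. Among pairs without Slco1c1, all but Cdh5 with Flt1 (-0.13) were positive there. Slco1c1 was positive there only with Slco1a4 (0.20).

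Of cells outside the vessel wall, 8 of 10 ependymal genes (median log2 fold change -2.10), 8 of 11 microglial genes (-0.06) and 9 of 11 tested blood cell genes (-0.89) were lower in SPI-24, and none passed. Hbb-bs, the adult beta-globin of erythrocytes in the vessels, had 1922 to 7696 normalized counts in DMSO and 2440 to 6850 in SPI-24. Of 10 oligodendrocyte genes 9 were higher (0.16), of 10 thalamic, hypothalamic and hindbrain genes 9 (0.87), of 12 medium spiny neuron genes 6 (-0.04), and of 12 hypoxia response genes 4 (-0.18). In the 7 libraries above 11 M reads, 2 oligodendrocyte genes were higher (median -0.17), as were 6 blood cell genes (0.25) and no medium spiny neuron or ependymal gene. Among 6 tested paralogs of the members, 4 were higher (0.64). Mfsd2b and Slco1b2 were too low to test, with reads in 2 of 10 libraries each.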
